A study of Mus musculus with 38 samples.

Results

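Chromatin regions that were open in young visceral fat progenitors and had no open-chromatin peak after 12 weeks of high-fat diet are described here. Tcf21, a helix-loop-helix transcription factor, labels progenitors of visceral fat, and mouse cells of the Tcf21 lineage were sorted and profiled by ATAC-seq, in which Tn5 transposase cuts accessible DNA, and by RNA-seq. Peaks of the 9 deposited ATAC-seq lists were merged into 123130 union regions (chromosomes 1 to 19, X and Y) wherever they overlapped by 1 bp or more. A region was a member if it held a peak in all 3 WT 3W lists and in neither WT 12W HFD list. This rule kept 757 regions, which is 1.96% of the 38625 regions with a peak in all 3 WT 3W lists. The peak calls in those 5 lists chose the members and are given as a description only, whereas the KO 3W lists, the WT 1W HFD lists and the RNA-seq libraries took no part in the choice.

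The ATAC-seq groups were WT 3W (wild-type mice at 3 weeks of age on regular diet, n = 3), KO 3W (Tcf21 knockout mice of the same age and diet, n = 2), WT 1W HFD (n = 2) and WT 12W HFD (n = 2), the last 2 being wild-type mice after 1 or 12 weeks of a high-fat diet begun at 6 weeks of age. The RNA-seq groups compared here were WT 3W (n = 7), KO 3W (n = 5), WT 1W HFD (n = 4), WT 12W HFD (n = 5) and WT 6M (6 months of age, regular diet, n = 2). The filter on low values and the shared spread of the fit also drew on WT P12 (12 days of age, n = 2), KO 1W HFD (n = 2) and KO 12W HFD (n = 2). All groups carried the tamoxifen-activated MerCreMer recombinase, and tamoxifen doses are listed for adult and for neonatal mice in every label, so the age at dosing is not given by group. Each library came from 5000 sorted cells, and no label says that replicates were separate animals, so p-values measure the spread between libraries. Titles set the groups here, because the separate genotype entry fitted the title for 16 of the 38 samples and contradicted it for 22. Age and diet differ together between WT 3W and both WT HFD groups and cannot be told apart there. Regular-diet cells of the HFD ages were not analysed here.

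Open chromatin marks promoters and distal regulatory elements. A region that loses its peak has become less accessible, or fallen below the calling limit, in the cells that were sorted. Progenitors of visceral fat respond to growth factors such as insulin-like growth factors (IGFs), fibroblast growth factors, Wnt and Hedgehog ligands, and to hormones such as leptin and prolactin. Their maturation into fat cells is held back by a set of transcription factors and ligands to which Tcf21 and Wnt5a belong.

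Most members lay away from gene starts. Leaving out the 1 chromosome without listed start sites, 53 of 741 members (7.15%) had their centre within 1 kb of a listed RefSeq start site, against 29.4% of the 36600 regions with a peak in all 3 WT 3W and both WT 12W HFD lists (called kept regions below) and 11.1% of all union regions. A further 409 members (55.2%) lay elsewhere in a gene, against 44.3% of kept regions and 56.1% of all union regions. Between genes lay 279 members (37.7%), against 26.3% and 32.8%. Scarcity at start sites was not particular to members. The share within 1 kb of a start was 8.29% for regions in all 3 WT 3W lists and 1 of 2 WT 12W HFD lists. It was 4.81% for those in 2 of 3 WT 3W lists and no WT 12W HFD list, and 3.18% for those in no WT 3W list and both WT 12W HFD lists. The sequence just before a start site could be read for the members that held one, from RefSeq promoter windows of GRCm38.p6 (the assembly of mm10), each 300 bases long. Of 32851 such windows, 57 lay wholly inside a member, at 48 members. The 6 stretches below are shown because their members sit at start sites beside genes whose RNA fell most between WT 3W and WT 12W HFD; each runs 5' to 3' on the strand of the start site and ends at the base before it. They are chr17:35027298-35027547 (+ strand, in a member at Sapcd1, before the start of Gm52318), chr4:101717157-101717406 (+ strand, Lepr), chr2:174760404-174760618 (+ strand, Edn3, the part inside the member), chr3:26331910-26332159 (- strand, Nlgn1), chr1:162638900-162639149 (+ strand, Myoc) and chr9:87144056-87144305 (+ strand, Mrap2). Capitals mark CAGCTG (the E-box bound by Tcf21 and its relative Msc) and CATCTG or its complement CAGATG (another E-box) in the stretch at Sapcd1, CAGCTG at Edn3, and a MEF2-type pattern at Nlgn1.
Gm52318 at Sapcd1: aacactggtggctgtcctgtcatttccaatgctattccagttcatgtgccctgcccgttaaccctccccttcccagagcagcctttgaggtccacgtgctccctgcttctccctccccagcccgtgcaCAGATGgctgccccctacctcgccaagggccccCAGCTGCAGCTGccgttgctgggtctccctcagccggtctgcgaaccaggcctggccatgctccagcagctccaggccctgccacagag
Lepr: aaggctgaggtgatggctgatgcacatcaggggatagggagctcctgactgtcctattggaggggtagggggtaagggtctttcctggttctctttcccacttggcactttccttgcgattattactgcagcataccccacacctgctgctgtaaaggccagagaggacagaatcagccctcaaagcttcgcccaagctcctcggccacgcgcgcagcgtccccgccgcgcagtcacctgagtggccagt
Edn3: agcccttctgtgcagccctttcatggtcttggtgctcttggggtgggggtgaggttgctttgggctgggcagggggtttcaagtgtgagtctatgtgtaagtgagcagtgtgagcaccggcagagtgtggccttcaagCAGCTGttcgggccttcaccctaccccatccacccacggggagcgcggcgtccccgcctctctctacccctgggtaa
Nlgn1: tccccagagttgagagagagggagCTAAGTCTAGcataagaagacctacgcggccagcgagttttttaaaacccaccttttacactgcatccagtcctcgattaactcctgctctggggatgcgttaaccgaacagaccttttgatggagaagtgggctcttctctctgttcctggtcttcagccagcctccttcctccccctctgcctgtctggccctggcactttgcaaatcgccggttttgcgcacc
Myoc: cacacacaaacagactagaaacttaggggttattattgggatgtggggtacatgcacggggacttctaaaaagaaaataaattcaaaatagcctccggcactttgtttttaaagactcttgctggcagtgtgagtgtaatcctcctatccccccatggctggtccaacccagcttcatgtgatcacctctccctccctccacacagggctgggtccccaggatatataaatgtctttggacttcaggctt
Mrap2: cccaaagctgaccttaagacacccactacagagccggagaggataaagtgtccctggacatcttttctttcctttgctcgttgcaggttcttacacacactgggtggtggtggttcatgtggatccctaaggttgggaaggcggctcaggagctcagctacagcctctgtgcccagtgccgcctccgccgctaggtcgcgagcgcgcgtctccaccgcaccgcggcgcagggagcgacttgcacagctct

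A total of 24 short motifs were searched on both strands in the 57 windows. CAGCTG was in 17 of the 57 (29.8%, at 16 members), in 15.7% of the 15548 windows inside kept regions and in 16.3% of all windows. CATCTG was in 11 (19.3%, against 11.6% in kept regions and 17.2% of all windows). The GATA pattern AGATAAG was in 5 (8.77%, against 1.70% and 3.04%), and the HOX with PBX pattern TGATTNAT in 3 (5.26%, against 1.27% and 3.22%). The ETS pattern CCGGAAG was in 0 of the 57 windows, in 15.9% of the windows in kept regions and in 8.86% of all windows. The KLF and SP pattern CCCCGCCC was in 15 (26.3%, against 31.8% and 17.6%), and TTTATNG, of posterior HOX factors, in 5 (8.77%, against 6.65% and 10.9%). Each of TGACTCA (AP-1), TTGCNCAA (C/EBP), the CTCF pattern and CTTTGAA (TCF and LEF) was in 3 windows. CATTCCA (TEAD), TGTGGTT (RUNX), TTCNNNGAA (STAT) and the MEF2 pattern were in 2 windows each, and CATATG (Twist) and TGTTTAC (FOX) in 1 each. No window held ACAATGG (SOX) or the patterns of NFI, EBF, the glucocorticoid receptor, nuclear receptors (DR1), NF-kB or IRF. Among all windows the motifs found in 1 to 3 member windows were in 2.43% (CTCF) to 8.30% (STAT), and those found in no member window, apart from ETS, in 0.381% (DR1) to 3.66% (SOX). The windows of a gene can overlap, the median GC content was 58.7% in the member windows, 61.0% in those of kept regions and 52.7% in all, and a match is a run of letters and not a shown binding site. No genome was at hand for the members away from start sites, so their sequences were not searched.

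The members were weak peaks in the lists that chose them. The authors' fold enrichment of a peak was ranked within its own list, because lists differ in length. The median member stood at the 46.9th percentile in WT 3W replicate 1, the 26.9th in replicate 2 and the 32.7th in replicate 3, whereas the median kept region stood at the 75.4th, 65.9th and 66.9th. Members were also narrower, with a median width of 1507 bp against 2832 bp for kept regions. The nearest WT 12W HFD peak was a median of 7076 bp away; 91 members had one within 1 kb and 305 had none within 10 kb. The threshold of the rule was close on both sides. A further 1268 regions had a peak in all 3 WT 3W lists and in 1 of the 2 WT 12W HFD lists, with median percentiles of 48.7, 26.9 and 32.7. Their median width was 1594 bp, close to that of the members. Another 2113 had a peak in 2 of the 3 WT 3W lists and in no WT 12W HFD list, with a median width of 1168 bp. The WT 12W HFD lists were longer (93314 and 82580 peaks) than the WT 3W lists (77862, 55990 and 58675 peaks). Read depth is unknown for all of them. Peak names start with one letter in 3 libraries (WT 3W replicates 2 and 3, KO 3W replicate 2) and with another letter in the remaining 6, and no source used here explains the letter. Without WT 3W replicate 2, whose list was the shortest, the rule gave 2058 members.

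In the libraries labelled KO 3W most members still had a peak. RNA of the targeted gene, Tcf21, did not differ past the threshold between KO 3W and WT 3W and overlapped (values below), so it does not show the deletion. KO 3W replicate 1 held a peak in 700 of the 757 members (92.5%) and replicate 2 in 650 (85.9%). Their lists, of 84876 and 78643 peaks, were longer than every WT 3W list and had a peak in 63.3% and 54.0% of all union regions. Both KO 3W lists held a peak at 619 members (81.8%), 1 of them at 112 (14.8%) and neither at 26 (3.43%). Over all 38625 regions with a peak in every WT 3W list, 97.9% had one in both KO 3W lists and 0.161% in neither.

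After 1 week of high-fat diet most members had a peak in at least 1 list and fewer had one in both, and the 2 libraries differed. WT 1W HFD replicate 1 held a peak in 496 members (65.5%) and replicate 2 in 314 (41.5%). Their lists also differed in breadth, covering 173 Mb and 136 Mb with a peak in 66.7% and 56.3% of all union regions. The part of list breadth in these shares was not tested. Both lists held a peak at 286 members (37.8%), 1 of them at 238 (31.4%) and neither at 233 (30.8%). Of all 38625 regions, 96.9% had a peak in both WT 1W HFD lists and 0.997% in neither, and 1.96% had none in either WT 12W HFD list, which are the members. The most frequent joint state was a peak in both KO 3W and both WT 1W HFD lists (248 members, 32.8%). A peak in both KO 3W lists and in no WT 1W HFD list was found at 170 members (22.5%), and no peak in any of the 4 lists at 12 (1.59%).

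The mean share of members with a peak was 89.2% ± 4.67 (SD, n = 2) in KO 3W and 53.5% ± 17.0 (SD, n = 2) in WT 1W HFD, a difference of 35.7 percentage points that was larger than either spread. By an exact permutation test (two-sided) p was 0.333, the smallest that 2 against 2 libraries allow. Genotype, age and diet differ together between KO 3W and WT 1W HFD and cannot be told apart here. KO 3W also shares age and diet with the WT 3W lists that chose the members. Kept regions had a peak in 99.3% ± 0.458 (SD, n = 2) and 99.4% ± 0.464 (SD, n = 2). The regions with a peak in 1 of the 2 WT 12W HFD lists lay between, at 93.0% ± 4.63 in KO 3W and 83.2% ± 7.86 in WT 1W HFD (SD, n = 2 each). The share in WT 1W HFD moved by over 1.5 times only where members were chosen by the 1 WT 3W library that shares the peak name letter of WT 12W HFD, a choice that takes in 10808 regions (24.5% ± 10.1 in WT 1W HFD, SD, n = 2, and 50.3% in the 1 KO 3W library of that letter).

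**Figure D1:**
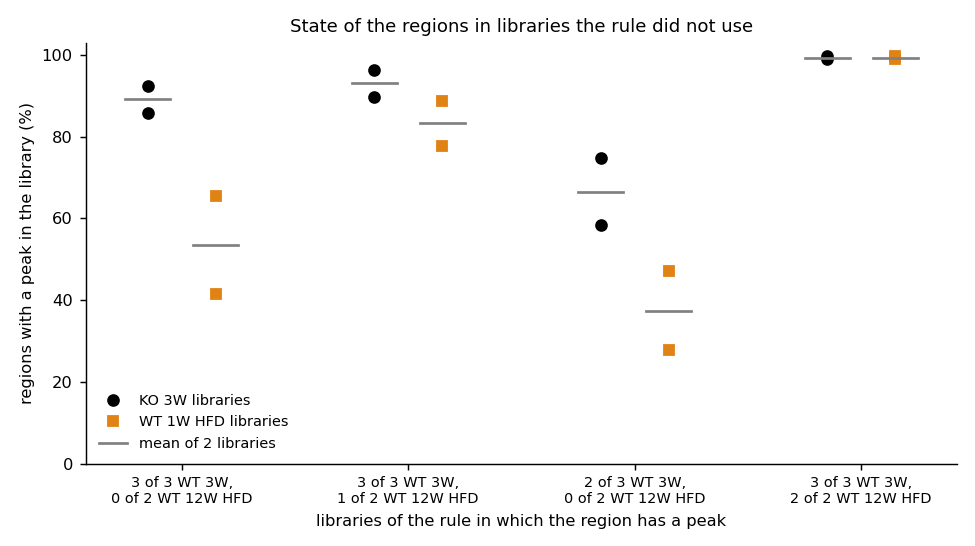
Share of regions (percent, vertical axis) with a peak in each KO 3W library (black circles) and each WT 1W HFD library (orange squares), for 4 classes of regions set by the WT 3W and WT 12W HFD lists; the grey line is the mean of 2 libraries. The members, at the left, had a peak in 92.5% and 85.9% for KO 3W and in 65.5% and 41.5% for WT 1W HFD.

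Regions were also described by peak strength, as the median of their 3 percentiles of fold enrichment in the WT 3W lists. These lists took part in the choice of members, and the WT 12W HFD lists in the choice of kept regions, so the bins are a description and no test. In the weakest bin (below the 10th percentile, 54 members), 38.9% of members had a peak in both WT 1W HFD lists, against 90.5% of 241 kept regions in the same bin. In the strongest bin (40th percentile and above, 268 members) the shares were 46.3% for members and 99.5% for kept regions. The lowest share among the 5 bins, 26.7%, was in the bin from the 30th to the 40th percentile (135 members). For both KO 3W lists the share of members rose from 63.0% in the weakest bin to 91.8% in the strongest, and that of kept regions from 76.3% to 99.6%. Members without a peak in either WT 1W HFD list were narrower (median 1305 bp) than those with a peak in both (median 1727 bp). A width spans the merged peaks of all lists, WT 1W HFD included, so part of this difference can be built in.

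**Figure D2:**
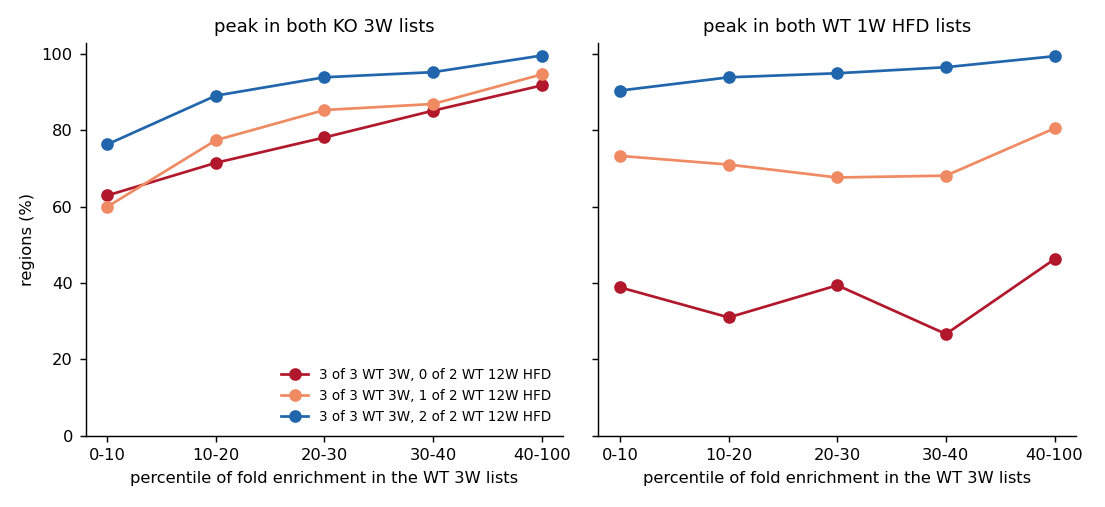
Share of regions (percent) with a peak in both KO 3W lists (left) and in both WT 1W HFD lists (right), by the median percentile of the authors' fold enrichment in the 3 WT 3W lists (horizontal axis, 5 bins), for members (dark red), regions with a peak in 1 of 2 WT 12W HFD lists (orange) and kept regions (blue). On the right the members lie between 26.7% and 46.3% in all bins, and the kept regions at 90.5% or more.

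The 8 members of highest rank, taken by the lowest of their 3 percentiles, all had a peak in both KO 3W lists. The first was chr7:67909758-67912224, 41.4 kb before the start of Igf1r, the receptor of IGF1, at the 70.9th percentile or above in every WT 3W list and with a peak in both WT 1W HFD lists. The others were beside Ipo8 (an importin, chr6:148718645-148720236), at the start of Lepr (chr4:101717118-101720215), beside Lpar1 (a lysophosphatidic acid receptor, chr4:58562814-58564841), beside Gm44809 (chr7:70608641-70610032), at chr10:8058990-8060913 with no gene within 100 kb, at the start of Kctd8 (chr5:69339958-69342154) and beside Tbx3 (a T-box factor, chr5:119640733-119642474). Of the 8, 3 had a peak in both WT 1W HFD lists (those by Igf1r, Kctd8 and Tbx3) and 5 in 1 of them. Between WT 3W and WT 12W HFD, RNA of Lepr and Igf1r passed as lower (values below), whereas Tbx3 measured -1.22 ± 0.54 (limma adjusted p = 0.14), Lpar1 -0.47 ± 0.16 (adjusted p = 0.051) and Ipo8 -0.25 ± 0.28 (adjusted p = 0.65), as log2 changes of the RNA level. Kctd8 and Gm44809 did not reach the filter on low values.

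Members were assigned to the gene of the RNA tables whose span held their centre, or otherwise to the nearest gene end within 100 kb. This placed 402 members inside a gene and 260 beside one (median gap 17.0 kb), 662 members at 572 genes in all, and left 95 without a gene. Members could lie close together: 133 had another within 50 kb, 75 genes had at least 2 and 12 genes at least 3. Arih1, a ubiquitin ligase gene, had 5 members among its 7 regions with a peak in all WT 3W lists, lying within chr9:59379905-59431920 and between 5208 and 11733 bp wide, and all 5 had a peak in both KO 3W lists. Ankfn1 had 4 of 7. Lepr, the leptin receptor, had 3 of 3, Ankdd1b 3 of 5, Stc1, a secreted stanniocalcin hormone, 3 of 6, and Gas6, a ligand of the TAM receptors, 3 of 6. All 3 members at Stc1 and all 3 at Gas6 had a peak in both KO 3W lists and in no WT 1W HFD list. Kdr, a VEGF receptor gene of endothelial cells, had 3 of 8, Plac1 3 of 9, Pappa2, a protease that cleaves IGF binding proteins, 3 of 12 and Stx8, a syntaxin gene, 3 of 13.

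The peaks around Lepr, Stc1 and Tcf21 show what the loss looked like. At Lepr the members lay at the gene's start and 17.8 and 24.4 kb before it. At Stc1 they lay at chr14:68991365-68992915, chr14:69065686-69067597 and chr14:69103753-69105756, between 24.8 and 62.9 kb from the gene. The Tcf21 gene itself had 2 members among its 7 WT 3W regions, chr10:22842708-22846069 and chr10:22868250-22869039, 25.02 and 48.5 kb before its start, and both had a peak in both WT 1W HFD lists. The first also had a peak in both KO 3W lists, and the second in replicate 1 alone.

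**Figure D3:**
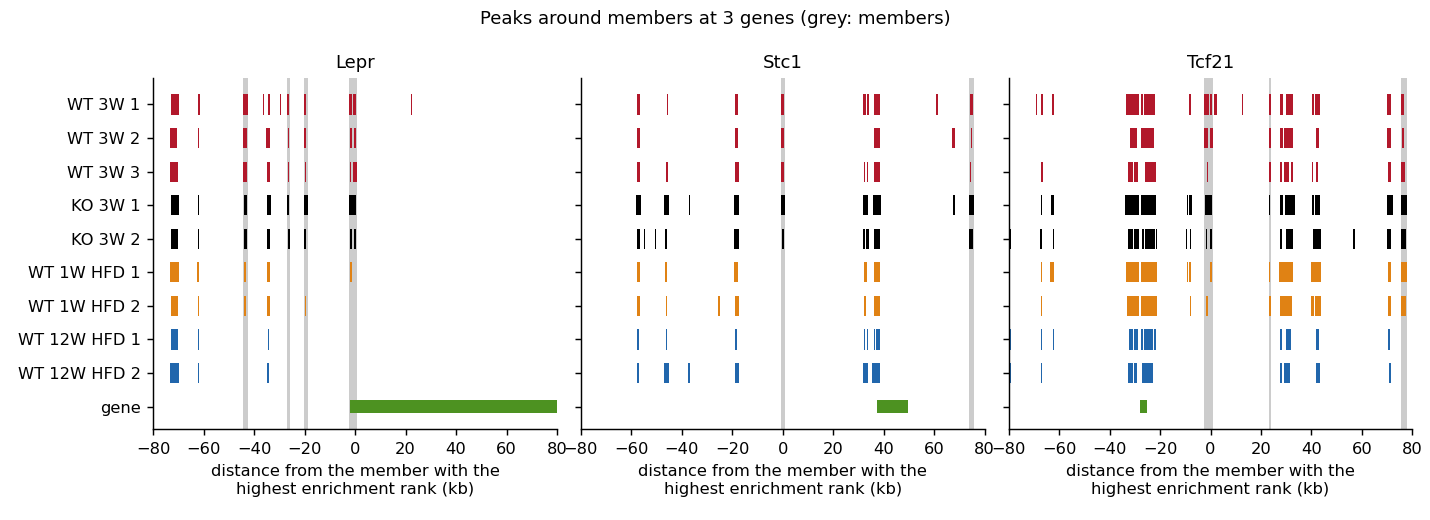
Peaks (coloured bars) of the 9 ATAC-seq libraries within 80 kb of the member of highest rank at Lepr, Stc1 and Tcf21; the horizontal axis is distance in kb, grey bands are all members in view, those assigned to another gene included, and the green bar is the gene. The 2 of 3 members of Stc1 in view have peaks in WT 3W (red) and KO 3W (black) and none in WT 1W HFD (orange) or WT 12W HFD (blue), while both members assigned to Tcf21 have peaks in WT 1W HFD.

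RNA of the genes at members was more often lower than higher after 12 weeks of diet. Of the 572 genes, 442 passed the filter (at least 1 TPM, a level scaled for transcript length and library total, in at least 2 of 29 libraries), 16 of them through WT 3W libraries alone, and 130 did not. In WT 12W HFD against WT 3W, 96 of the 442 were lower (21.7%, against 6.23% of all 15659 genes tested) and 10 were higher (2.26%, against 7.94%), by limma on log2(TPM + 1) with Benjamini-Hochberg adjustment over all genes tested and a threshold of 0.05. The median change was -0.37 for these genes and -0.04 over all genes, on the log2(TPM + 1) scale. Without the 16 genes that passed the filter through WT 3W alone, 96 of 426 were lower (22.5%). Of 11906 tested genes with a region in all 3 WT 3W lists but no member, 784 were lower (6.58%) and 784 higher. Among 714 genes with no member and a region in 1 of the 2 WT 12W HFD lists, 100 were lower (14.0%) and 30 higher (4.202%). Genes with 2 or more members were lower in 20 of 60 cases (33.3%) and higher in 0, and those with 1 member lower in 76 of 382 (19.9%). These counts describe the genes and were not tested against each other. The count lower was 61 with members assigned to the nearest listed start site, and the share was 11.3% where WT 3W replicate 1 alone chose the members.

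After 1 week of diet, 47 of the 442 genes were lower (10.6%, against 3.25% of all genes) and 11 higher (2.49%, against 4.78%), with a median change of -0.20 against 0.02. At 6 months on regular diet, 96 were lower (21.7%, against 6.85%) and 8 higher (1.81%, against 4.0%), with a median of -0.64 against -0.24 over all genes. All of these comparisons share the WT 3W libraries. WT 12W HFD was also compared with WT 6M, which shares none of them: 1 of the 442 genes was lower (0.226%, against 0.179% of all genes) and 4 were higher (0.905%, against 0.702%), by limma. The count lower at 6 months was 51 or 44 without WT 6M replicate 1 or 2, and the count lower after 1 week was 29 or 31 without WT 1W HFD replicate 3 or 4. Genes with a member closed in both WT 1W HFD lists were lower after 1 week in 20 of 130 cases (15.4%), and genes with a member open in both in 17 of 193 (8.81%); after 12 weeks the shares were 21.5% and 20.7%.

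In the libraries labelled KO 3W none of the 442 genes passed the threshold of limma in either direction (0.0% of all genes did), with 23 at an unadjusted p under 0.05 among them and 546 among all genes. The median change was -0.04, against 0.01 over all genes.

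**Figure D4:**
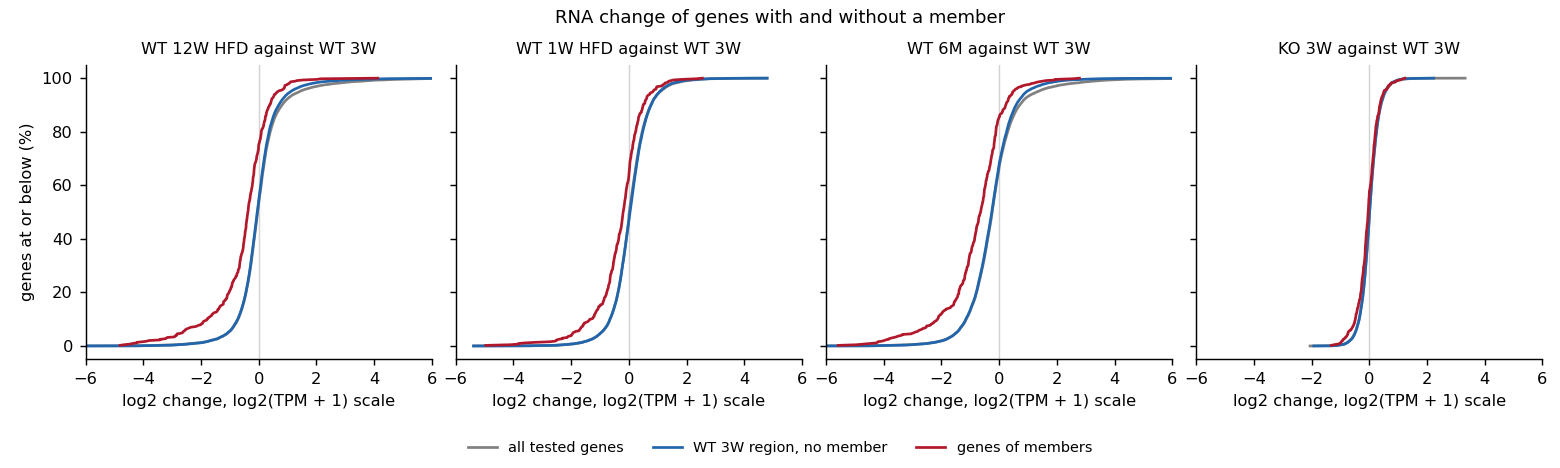
Cumulative share of genes (percent, vertical axis) by log2 change on the log2(TPM + 1) scale (horizontal axis, from -6 to 6) in 4 comparisons with WT 3W, for genes of members (red, 442 genes), tested genes with a WT 3W region and no member (blue) and all tested genes (grey). The red line lies to the left of the others in the first 3 panels, with medians of -0.37, -0.20 and -0.64.

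In a bulk library, fewer cells of a type and less RNA per cell cannot be told apart, and other cells were present in the sort. The summed level of 20 macrophage markers ran from 75.4 to 367 TPM in WT 3W, 890 to 1264 TPM in WT 1W HFD, 5001 to 15483 TPM in WT 12W HFD, 4462 to 9862 TPM in WT 6M and 152 to 1015 TPM in KO 3W, with 19 of 20 tested markers higher in WT 12W HFD than in WT 3W and none of them at 0 throughout any of these groups. The 16 lymphocyte markers summed to 0.220 to 8.96 TPM in WT 3W and 31.95 to 274 TPM in WT 12W HFD (12 of 13 tested higher; of the 16 markers, Cd3d, Cd3g, Gzma and Klrb1c were at 0 in all WT 3W libraries). The 11 fibroblast and lineage markers summed to 26003 to 43026 TPM in WT 3W and 24616 to 26919 TPM in WT 12W HFD (5 lower, 1 higher), and none of them was at 0 throughout a group. The 14 pericyte and smooth muscle markers summed to 156 to 3149 TPM in WT 3W and 146 to 291 TPM in WT 12W HFD (5 lower, 0 higher). The 14 mesothelial markers summed to 249.06 to 413 TPM and 132 to 214 TPM (1 of 13 tested lower, 1 higher), and the 10 Schwann cell markers, Ncam1 among them, to 69.1 to 118 TPM and 43.6 to 77.8 TPM (1 of 6 tested lower, 1 higher). The 17 endothelial markers summed to 97.6 to 206 TPM in WT 3W, 295 to 715 TPM in WT 1W HFD and 141 to 464 TPM in WT 12W HFD (0 lower, 5 higher). This list had 4 members, at Emcn and Kdr. The 9 erythroid markers summed to 1117 to 9489 TPM in WT 3W and 3615 to 41700 TPM in WT 12W HFD (0 of 7 tested lower, 0 higher), with Gata1 at 0 throughout both groups. The part of these shifts in the results was not tested. No macrophage or lymphocyte marker gene had a member, but only 9 of the 20 and 4 of the 16 had a WT 3W region. Over all genes with such a region 3.88% had a member. An absence from lists this short is near that share and is no result about these cells.

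The genes with the largest falls are given next. Lepr read between 7.77 and 54.3 TPM in the 7 WT 3W libraries (median 15.6), 0.210, 1.71, 0 and 0.890 TPM after 1 week of diet, and 0, 0.07, 0, 0.14 and 0 TPM after 12 weeks. The highest WT 12W HFD library was thus far below the lowest WT 3W library, and the change was -4.22 ± 0.55 (SE; limma adjusted p = 1.4e-06) after 12 weeks and -3.62 ± 0.59 (adjusted p = 0.00036) after 1 week. Stc1 ran from 27.1 to 98.5 TPM in WT 3W (median 31.6) and read 3.00, 0.960, 0.890 and 1.24 TPM after 1 week. After 12 weeks it read 1.08, 0.790, 1.88, 2.76 and 0.490 TPM, a change of -4.22 ± 0.59 (adjusted p = 5.4e-06), beside -4.14 ± 0.64 (adjusted p = 0.00022) after 1 week, when its 3 members had no peak. In KO 3W, where they had one, Stc1 read 2.52, 160, 42.2, 135 and 59.9 TPM, which overlaps WT 3W (0.11 ± 0.59, adjusted p = 1).

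Prlr, the prolactin receptor, with 1 member in the gene and no peak there in either WT 1W HFD list, ran from 26.2 to 106 TPM in WT 3W and from 3.94 to 7.47 TPM in WT 12W HFD (-3.41 ± 0.35, adjusted p = 2.4e-08). Edn3, endothelin 3, whose member covers its start and was closed in both WT 1W HFD lists, ran from 5.46 to 38.1 TPM in WT 3W. It read 0.670 TPM in 1 WT 12W HFD library and was listed at 0 in the other 4 (-3.41 ± 0.51, adjusted p = 1.2e-05). Rbp4, a retinol carrier released by fat cells, had 1 member in its gene, closed in both WT 1W HFD lists and open in 1 of 2 KO 3W lists. Its level was 302 to 981 TPM in WT 3W (median 868) and 42.9, 10.7, 13.8, 37.2 and 69.0 TPM in WT 12W HFD, with no overlap (-4.48 ± 0.48, adjusted p = 5.7e-08). At 6 months Rbp4 read 21.96 and 51.99 TPM, within the range of the WT 12W HFD libraries. Iyd, a deiodinase, with 2 members open in all KO 3W and WT 1W HFD lists, ran from 3.98 to 41.4 TPM in WT 3W and was listed at 0 in all 5 WT 12W HFD libraries (-4.02 ± 0.57, adjusted p = 7.0e-06).

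The IGF axis had the most members of the growth factor lists. Of its 16 genes, all with a region in every WT 3W list, 6 had members, 9 in all: Igf1r (2), Pappa2 (3), Igfbp3, Igfbp7, Igf2bp1 and Igf2bp3. Over all 14747 genes with such a region, 3.88% had a member. Of 15 IGF genes tested, 7 were lower and 0 higher in WT 12W HFD (6.23% and 7.94% of all genes tested), with a median change of -0.78 (-0.04 over all genes). Among the 6 genes with a member 3 passed as lower and 0 as higher, so IGF genes without a member fell as well. Igfbp3, which binds IGFs in the circulation and around cells, was the most abundant gene at a member among those named, with 322 to 1750 TPM in WT 3W (median 1010). It read 42.6, 63.1, 13.9 and 27.1 TPM after 1 week and 15.7, 68.9, 134, 65.0 and 27.4 TPM after 12 weeks, with no overlap with WT 3W (-4.37 ± 0.52, adjusted p = 3.3e-07, after 12 weeks). Its member, 0.616 kb from the gene's far end, had a peak in 1 KO 3W list and in no WT 1W HFD list. Igf1r ran from 7.33 to 33.9 TPM in WT 3W and from 1.76 to 7.01 TPM in WT 12W HFD (-1.69 ± 0.37, adjusted p = 0.0015). Pappa2 ran from 0.330 to 6.79 TPM in WT 3W and did not exceed 0.06 TPM in WT 12W HFD (-1.92 ± 0.44, adjusted p = 0.0027). For Igfbp7, an IGF binding protein, the change was -0.14 ± 0.26 and did not pass (adjusted p = 0.79).

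Inhibitors of adipogenesis hold back the formation of fat cells. Of 24 listed inhibitors of adipogenesis, 21 had a WT 3W region and 2 a member, Tcf21 and Wnt5a, and both fell. The share with a member over all genes with such a region was 3.88%. Among the 22 tested genes of the list 9 were lower and 0 higher (6.23% and 7.94% of all genes tested). Genes of the list without a member thus fell as well. Tcf21 ran from 37.6 to 109 TPM in WT 3W (median 47.6), read 13.6, 47.4, 11.3 and 19.98 TPM after 1 week and 13.5, 10.2, 5.86, 7.13 and 10.1 TPM after 12 weeks. The fall after 12 weeks was -2.62 ± 0.35 (adjusted p = 2.9e-06), with no overlap, and at 6 months it was -3.74 ± 0.49 (adjusted p = 9.3e-06). In KO 3W, where it is the targeted gene, Tcf21 read 20.01, 60.9, 21.9, 48.2 and 25.1 TPM, a change of -0.91 ± 0.35 that did not pass (adjusted p = 1), and the libraries overlap those of WT 3W. Wnt5a, a ligand of the non-canonical Wnt pathway, read 21.3, 40.5, 18.7 and 23.9 TPM after 1 week, overlapping its WT 3W range of 21.4 to 68.2 TPM, and 3.82, 3.61, 6.36, 10.2 and 3.35 TPM after 12 weeks (-2.88 ± 0.32, adjusted p = 1.0e-07). Its only member lies 96.6 kb from the gene. Klf5, an adipogenic zinc finger factor with 1 member 97.1 kb away, ran from 13.8 to 54.5 TPM in WT 3W and from 0.610 to 1.76 TPM in WT 12W HFD (-3.87 ± 0.38, adjusted p = 1.0e-08). It was the only 1 of 20 adipogenic transcription factors with a member, near the 3.88% of all genes with a WT 3W region that had one.

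Plagl1, an imprinted zinc finger gene of growth control with 2 members in the gene, ran from 4.37 to 20.5 TPM in WT 3W and from 0.210 to 1.57 TPM in WT 12W HFD (-2.61 ± 0.40, adjusted p = 2.3e-05). Each of its members had a peak in 1 KO 3W and 1 WT 1W HFD list. Meis1, a homeobox factor, with 1 member 14.8 kb beside the gene, ran from 96.5 to 254 TPM in WT 3W and from 39.9 to 82.6 TPM in WT 12W HFD (-1.10 ± 0.25, adjusted p = 0.0023). Ptch1, the Hedgehog receptor, had 2 members in the gene and a change of -2.01 ± 0.61 (adjusted p = 0.024). The call for Ptch1 was lost without WT 3W replicate 2 or WT 12W HFD replicate 4, and when the groups were fitted alone. Fgfr2, a fibroblast growth factor receptor, had 1 member 32.9 kb beside its span. That span is 2961 kb long in the RNA tables and overlaps 38 other genes, so its assignment and level are uncertain. It ran from 7.60 to 22.5 TPM in WT 3W and from 0.04 to 1.69 TPM in WT 12W HFD (-2.83 ± 0.40, adjusted p = 5.6e-06).

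**Figure D5:**
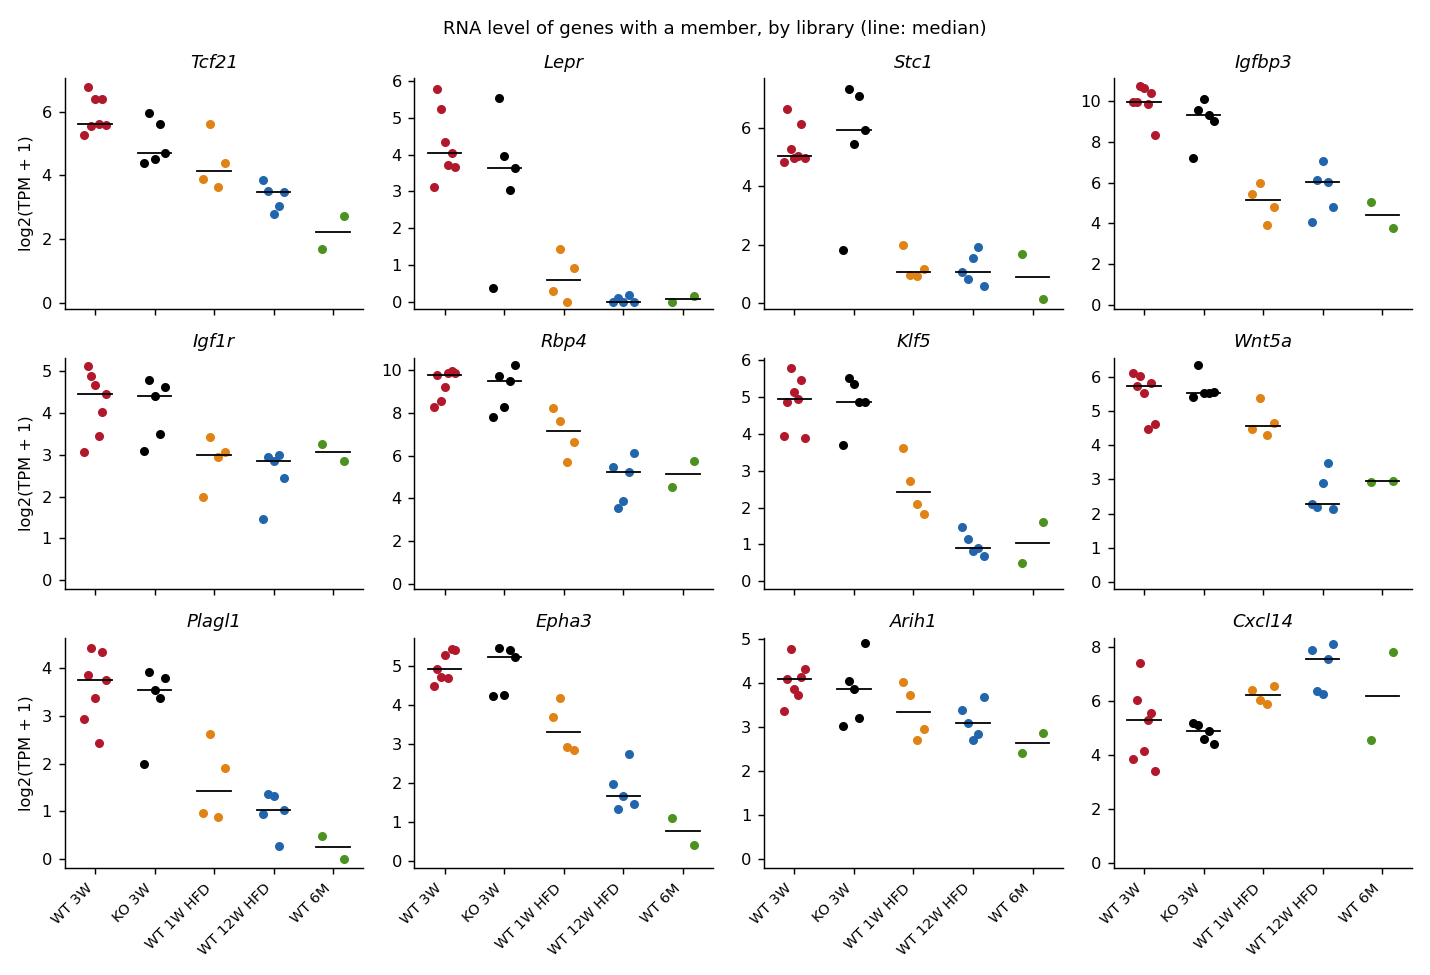
RNA level (log2(TPM + 1), vertical axis) of 12 genes with a member in each library of WT 3W (red), KO 3W (black), WT 1W HFD (orange), WT 12W HFD (blue) and WT 6M (green); the line is the median. Lepr and Stc1 are near 0 in most diet libraries, with Stc1 at 0.890 to 3.00 TPM after 1 week, and Cxcl14 is an example of a gene that rose.

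Axon guidance genes code for ligands and receptors that steer growing nerve fibres and migrating cells. Of 28 such genes, 27 had a WT 3W region and 7 had a member (Efna5, Epha3, Ephb2, Nrp2, Plxnd1, Slit2 and Unc5c), of which 4 passed as lower in WT 12W HFD and 0 as higher. The share with a member over all genes with a WT 3W region was 3.88%. Of the 27 tested genes of the list 7 were lower and 0 higher (6.23% and 7.94% of all genes tested), with a median change of -0.55 (-0.04 over all genes). Epha3, an ephrin receptor, ran from 21.6 to 42.8 TPM in WT 3W and read 2.95, 1.52, 2.16, 5.75 and 1.75 TPM in WT 12W HFD, with no overlap (-3.17 ± 0.30, adjusted p = 6.5e-09). Its member lies in the gene, 157 kb from the start. Unc5c, a netrin receptor, changed by -0.91 ± 0.26 (adjusted p = 0.015) and Ephb2, an ephrin receptor, by -1.02 ± 0.32 (adjusted p = 0.028), a call lost in 8 of 17 alternative fits, 5 of which leave out a single library (WT 3W replicate 3 or 5, WT 12W HFD replicate 1, 3 or 5). The fourth, Efna5, an ephrin, changed by -0.91 ± 0.31 (adjusted p = 0.046) and passed in only 7 of 17 alternative fits. Its member lies 59.5 kb outside the gene, and 1369 bp from a listed start site outside the span of Efna5, so its assignment is uncertain. Slit2, a Robo ligand, measured -0.48 ± 0.24 and did not pass (adjusted p = 0.21).

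Outside the list, Ncam1, the neural cell adhesion molecule, ran from 18.98 to 86.2 TPM in WT 3W and from 1.63 to 6.45 TPM in WT 12W HFD (-3.20 ± 0.32, adjusted p = 1.3e-08). Lsamp, a membrane protein of the limbic system, had 2 members open in all KO 3W and WT 1W HFD lists. It ran from 14.8 to 42.3 TPM in WT 3W and from 0 to 2.05 TPM in WT 12W HFD (-3.81 ± 0.37, adjusted p = 1.2e-08), with 2.80 to 17.5 TPM after 1 week. Syndig1, a synapse differentiation gene, fell by 4.68 ± 0.56 on the log2 scale (adjusted p = 3.5e-07), from 28.9 to 118 TPM in WT 3W to between 0 and 12.5 TPM in WT 12W HFD. Gm266 changed by -3.23 ± 0.41 (adjusted p = 1.1e-06). Of 33 Wnt pathway genes, all with a WT 3W region, 5 had a member (Fzd2, Lrp6, Rspo1, Tcf7l2 and Wnt5a), against 3.88% of all genes with such a region. Among these 5, besides Wnt5a only Fzd2, a Frizzled receptor, passed (-0.93 ± 0.24, adjusted p = 0.0074). In the whole list 7 of 31 tested genes were lower and 0 higher (6.23% and 7.94% of all genes tested), so genes without a member fell as well.

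Members at gene starts were few, and their genes were often lower. Of 37 genes of the RNA tables with a listed start within 1 kb of a member's centre, 25 were tested, and 10 were lower (against 6.23% of all genes) and 1 was higher in WT 12W HFD. Sapcd1, whose member lies in the gene and covers the start of Gm52318, had the largest fall of the genes at members. It ran from 18.2 to 66.3 TPM in WT 3W, read 2.90, 6.12, 0 and 4.05 TPM after 1 week and did not exceed 0.610 TPM after 12 weeks (-4.80 ± 0.41, adjusted p = 9.8e-10). The span of Sapcd1 overlaps that of Vwa7, and whether reads were counted by strand is not given, so its level is uncertain. Myoc, myocilin, ran from 14.0 to 78.4 TPM in WT 3W and from 2.94 to 6.60 TPM in WT 12W HFD (-2.89 ± 0.42, adjusted p = 8.5e-06). Nlgn1, a neuroligin of synapses, ran from 0.810 to 29.2 TPM in WT 3W and did not exceed 0.550 TPM in WT 12W HFD (-2.92 ± 0.50, adjusted p = 9.9e-05). Agtr1b, an angiotensin receptor, had its only WT 3W region closed in both WT 1W HFD lists and was listed at 0 in all WT 1W HFD and WT 12W HFD libraries, but also in 1 WT 3W library (0 to 8.91 TPM, -1.62 ± 0.45, adjusted p = 0.014). Ano1, a chloride channel, changed by -2.58 ± 0.59 (adjusted p = 0.0024), Pwwp3b by -2.50 ± 0.51 (adjusted p = 0.00081) and Ankdd1b by -1.78 ± 0.40 (adjusted p = 0.0019). The same uncertainty holds for the other named genes whose spans overlap another gene, which are Myoc, Ankdd1b, Prlr, Ptch1, Gas6, Shc4, Unc5c and Ipo8 (1 each), Lsamp (2), Meis1 (3), Kctd8 (7) and Fgfr2. Mrap2, a melanocortin receptor accessory protein, changed by -2.83 ± 0.94 (adjusted p = 0.041) and passed in only 6 of 17 alternative fits.

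The genes at members that rose were immune or secreted in part. Ly86, a partner of a B cell and macrophage receptor, ran from 0 to 4.28 TPM in WT 3W and from 19.6 to 43.2 TPM in WT 12W HFD (4.12 ± 0.45, adjusted p = 6.9e-08), beside the rise of the macrophage markers given above. Its member lies 63.7 kb away, and 4518 bp from a listed start site outside the span of Ly86. The gene also had 3 regions with a peak in no WT 3W list and both WT 12W HFD lists. Cxcl14, a chemokine, ran from 9.61 to 168 TPM in WT 3W and from 77.0 to 277 TPM in WT 12W HFD, which overlap (2.15 ± 0.59, adjusted p = 0.012). The member of Cxcl14 lies 48.1 kb away, and 12481 bp from a listed start site outside the span of the gene. Prss23, a secreted protease, ran from 308 to 690 TPM in WT 3W and from 1216 to 1797 TPM after 1 week, and read 580, 1378, 1247, 1457 and 1627 TPM after 12 weeks (1.32 ± 0.26, adjusted p = 0.00061). Its member covers the start and had no peak in KO 3W. Sept9, a septin, changed by 2.02 ± 0.45 (adjusted p = 0.0020), Shc4, an adaptor protein, by 1.53 ± 0.35 (adjusted p = 0.0025) and Skap1, a T cell adaptor, by 1.26 ± 0.36 (adjusted p = 0.017, lost without WT 12W HFD replicate 2).

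Several genes with 3 or more members did not pass after 12 weeks, whereas Lepr, Stc1, Ankdd1b and Pappa2, with 3 each, did. Arih1, with the most members, ran from 9.31 to 26.2 TPM in WT 3W and from 5.52 to 11.9 TPM in WT 12W HFD, which overlap (-0.89 ± 0.31, adjusted p = 0.051), and fell at 6 months (-1.40 ± 0.42, adjusted p = 0.031). Gas6 measured 116 to 529 TPM in WT 3W and 162 to 286 TPM in WT 12W HFD (-0.50 ± 0.28, adjusted p = 0.28), and Stx8 21.6 to 43.0 TPM and 30.2 to 42.1 TPM (0.18 ± 0.21, adjusted p = 0.66). Kdr overlapped as well, with 1.99 to 9.64 TPM in WT 3W and 0.110 to 10.6 TPM in WT 12W HFD (-0.99 ± 0.42, adjusted p = 0.12). Ankfn1 did not reach the filter, and Plac1 was listed at 0 in all libraries of the 5 groups described except 3 of WT 3W. Among the lists with no member were the Dpp4-type interstitial progenitors (16 of 17 genes with a WT 3W region), immediate early genes (22 of 24), complement genes (12 of 18) and pericyte and smooth muscle markers (14 of 14). Over all genes with such a region 3.88% had a member, so 0 in lists of this size is near that share. Of the 26 cell cycle genes, 25 had a WT 3W region and only Mki67, a proliferation marker, had members, which is also near that share. In RNA, 0 of the 26 passed in either direction.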

How the data were processed

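Per the labels, RNA and nuclei came from sorted Tcf21 lineage cells. The authors deposited TPM per gene and, for each ATAC-seq library on its own, a peak list on mm10. Its deposited columns are a score, the fold enrichment of each peak (a ratio), and −log10 of its p and q; these are the authors' values, used for ranks and filters inside 1 list. Tools named, without roles, in the submitters' processing notes are Bowtie2 2.3, MACS2, FastQC, STAR 2.5.3a, Trim Galore 0.6 and RSEM. TPM columns summed to 918008 to 969385, and read depth is unknown, so no counting interval was computed.

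Peaks were merged and classed in Python 3.11.15. A gene was tested if 2 or more libraries reached 1 TPM, and limma 3.58.1 (R 4.3.3) was run on log2(TPM + 1) of all 29 libraries (8 group means, 21 residual degrees of freedom, eBayes with a trend; two-sided; tested on simulated data). Values after ± are SD for shares and SE for log2 changes, which understate the change of low genes. The members and gene lists were chosen with earlier results of these data known. The plan assigned members to the nearest start site; the listed start sites cover only 16939 of 25746 genes, so gene spans were used instead. Named genes were the 10 with most members, the 12 largest falls and 6 largest rises at members, the 8 members of highest rank, the 8 largest falls at starts, and up to 4 genes a list. Printed stretches replaced windows at summits for want of a genome. Titles put KO 3W and WT 3W libraries in pairs (5 in RNA, 2 in ATAC), without saying what a pair shares; correlations of deviations in the 6 RNA pairings (pair 3 has 2 WT libraries) were -0.13, 0.18, 0.21, 0.21, 0.22 and 0.48. HFD and WT 6M libraries share only numbers with WT 3W. Alternatives were other peak cutoffs, libraries left out, pseudocount 0.1, no filter, columns rescaled, 2 groups alone and other assignments.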

Additional observations from a re-analysis of the deposited data

Results flagged for a closer look

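Among the 18 genes named for the largest falls and rises, 72 groups of 4 to 7 libraries were checked for a library far from the others. Of these 14 were found, and chance gives about 1 in 20. In WT 3W, Cxcl14 read 168.49 TPM in replicate 3 (the others 9.61 to 65.86), Ly86 4.28 TPM in replicate 6 (0.0 to 1.09), Shc4 1.36 TPM in replicate 5 (0.0 to 0.47) and Skap1 0.44 TPM in replicate 7 (0.0 to 0.08). In KO 3W, replicate 2 stood high for Edn3 (35.01 TPM, the others 1.32 to 8.48), Syndig1 (142.6 TPM, 21.28 to 54.82) and Shc4 (1.14 TPM, 0.0 to 0.24), and replicate 1 for Skap1 (2.28 TPM, 0.0 to 0.17). After 1 week of diet, Stc1 read 3.0 TPM in replicate 1 (0.89 to 1.24), Iyd 0.69 TPM in replicate 2 (0.0 in the others) and Ly86 0.0 TPM in replicate 1 (3.72 to 4.31). After 12 weeks, replicate 4 stood high for Edn3 (0.67 TPM, 0.0 in the others) and Gm266 (3.83 TPM, 1.15 to 1.34), and replicate 1 for Syndig1 (12.53 TPM, 0.0 to 3.01).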

How the results depend on the processing

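The number of members depended on the peak lists: 496 with peaks of −log10 q of at least 5, 2038 with lists shortened to an equal number of strongest peaks, 1339 with windows at summits, 10808 with the libraries of one peak name letter, and 907 to 2058 with 1 library left out. Their share with a peak in KO 3W was 79.0%, 71.8%, 50.3% and 82.7% for the strongest peaks, summits, the same letter and the other letter, and 76.0% to 90.9% with 1 library left out; in WT 1W HFD it was 24.5% for the same letter and 41.0% to 71.1%. After 12 weeks 61 genes were lower by start sites and 6 higher within 20 kb. After 1 week 7 were higher within 20 kb, and 29 to 62 lower and 5 to 12 higher with 1 library left out. At 6 months 47 were lower and 3 higher with 2 groups fitted alone, 61 and 5 by start sites, 3 higher within 20 kb, and 44 to 110 lower and 3 to 9 higher with 1 library left out. WT 12W HFD against WT 6M gave 0 lower with pseudocount 0.1, without a filter and with 2 groups alone (then also 0 higher), 2 lower by start sites, and 0 to 2 with 1 library left out. The share of genes lower was 11.3% by WT 3W replicate 1 alone and 17.1% to 20.8% with 1 library left out. The cause was not tested.

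With the replicate block, 66 genes were lower and 7 higher after 12 weeks, 0 and 0 after 1 week, at 6 months and against WT 6M. With the pairs of the titles as block, KO 3W against WT 3W gave 0 lower and 0 higher. Libraries of WT 12W HFD, WT 1W HFD and WT 6M had correlations of deviations from -0.10 to 0.15 with WT 3W libraries of the same number, and so were taken to share only a number. Comparisons with WT 6M, the start-site assignment, the other-letter libraries and shares by left-out library were chosen after seeing the data. Motif windows in members were not run for want of a genome. Genes inside a member's span became the assignment reported. Unknown read depth limits every peak called absent.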
